A study of Mus musculus with 4 samples.

Results

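GCimm1 and GCimm2 are the clusters that the authors named as the first and second stage of the immature granule cell, the principal neuron of the dentate gyrus, among nuclei of adult-born cells. Members were chosen by the cluster name that the deposited table gives each nucleus, and the comparison was made within w2 and within w4, the libraries taken 2 and 4 weeks after tamoxifen, because both clusters are well filled only there. This gave 3263 nuclei of the 14367 in the table: 1933 of GCimm1 and 545 of GCimm2 in w2, and 379 and 406 in w4. The question was which functions an immature neuron gains and loses between the stages.

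All nuclei came from young adult mice on a C57Bl/6J background that carried the reporter CAGfloxStop-Sun1/sfGFP and a tamoxifen-inducible Cre active in radial glia-like stem cells and early progenitors. Tamoxifen turned on a green nuclear envelope tag in these cells and in all cells that they later gave rise to. No untreated or Cre-negative group was among the libraries. The authors left out a set of nuclei of w4 that clustered apart, most of them called male. Each library was 1 pool of left dentate gyri from male and female mice, and tagged nuclei were sorted before droplet sequencing of nuclear RNA. A pool is not an animal, so no spread between animals could be measured, and the p-values below measure a spread between sums that may be technical. The sort keeps every tagged cell, and the week is the time since tamoxifen, not the age of a cell.

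A newborn granule cell leaves the cell cycle, extends a dendrite and an axon, and for some time is driven by GABA, which depolarises it, before glutamate synapses form. AMPA and NMDA receptors are tetramers that open on binding glutamate, while metabotropic receptors act through G proteins. GABA-A receptors are chloride channels of 5 subunits, and the direction of their current depends on the chloride level that the transporters Slc12a2 (inward) and Slc12a5 (outward) set. Calretinin (Calb2) is known as a marker of young granule cells and calbindin (Calb1) as a marker of older ones.

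GCimm1 made up 45.6% of the nuclei in w2 (exact Clopper-Pearson 95% interval 44.1 to 47.1) and 9.89% in w4 (8.97 to 10.9). GCimm2 made up 12.8% in w2 (11.9 to 13.9) and 10.6% in w4 (9.64 to 11.6). In w1, GCimm1 made up 4.50% and GCimm2 0 of 2867 nuclei, which allows a share of up to 0.105%, and in w8 they held 1 and 28 nuclei. The intervals of the clusters overlapped in w4 and lay far apart in w2, where GCimm1 was the larger. These intervals cover counting error only, and with 1 pool per week no test between weeks was made.

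The clusters differed in depth. The median nucleus of GCimm2 held 8777 UMIs (unique molecules counted) in w2 and 5382.5 in w4, against 5290 and 3841 in GCimm1. The 4 sums of UMIs held 10945220 (GCimm1, w2), 5011870 (GCimm2, w2), 1624674 (GCimm1, w4) and 2317325 (GCimm2, w4). Levels below are UMIs of a gene per 1000000 UMIs of the same nuclei (counts per 1000000, CPM), so they are shares of the RNA and not amounts per cell. The share of nuclei called male lay between 23.7% and 25.1% in all 4 sums. Of the cell barcodes, 6 occurred in both w2 and w4 among the nuclei kept.

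The labels were set beside markers of granule cells. Prox1, the transcription factor that defines the granule cell, was at 806 CPM in w2 and 909 in w4 against 678.4 and 819.9 in GCimm2, and the neuronal splicing factor Rbfox3 at 536 CPM in w2 and 497 in w4 against 598 and 473. Dcx, a microtubule protein of migrating and young neurons, was at 314 CPM in w2 and 331 in w4 against 209 and 227 (not called, log2 change -0.41 ± 0.19, adjusted p = 0.22). Igfbpl1, another marker of this stage, was at 596 CPM in w2 and 595 in w4 against 332 and 321 (not called, -0.71 ± 0.28, adjusted p = 0.13), and 5 of the 17 alternative settings called it lower. Each of these 4 genes was present in both clusters of both libraries. The paper used them to name clusters of these same nuclei, so their presence is not independent evidence for the labels. Presence in a sum also sets no cell type apart, since Gad1 and Slc1a2, markers of other cell types, were present in the same sums.

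For the test, UMIs were summed per library and cluster, and GCimm2 was compared with GCimm1 in an edgeR quasi-likelihood fit with the library as a term. Sums of the other trajectory clusters and of astrocytes entered the fit to estimate the spread, since 4 sums alone leave 1 residual degree of freedom. Calling a gene took a change of 1.5-fold or more with a Benjamini-Hochberg adjusted p no higher than 0.05, and "rose" and "fell" below mean called higher or lower in GCimm2. Of 14073 genes tested, 822 (5.84%) rose and 354 (2.52%) fell, together 8.36%. The median change was 1.23 on the log2 scale among the genes that rose and -1.08 among those that fell, beside -0.018 over all genes tested. The fit scales the sums by TMM factors and CPM do not. Over 11053 genes with at least 100 UMIs, the fitted change lay above the mean CPM log2 ratio of the weeks by a median of 0.16. A small fitted change can have the opposite sign to its CPM. A change of 2-fold or more was seen in 521 of the genes that rose and 192 of those that fell, and of 4-fold or more in 165 and 35.

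**Figure D1:**
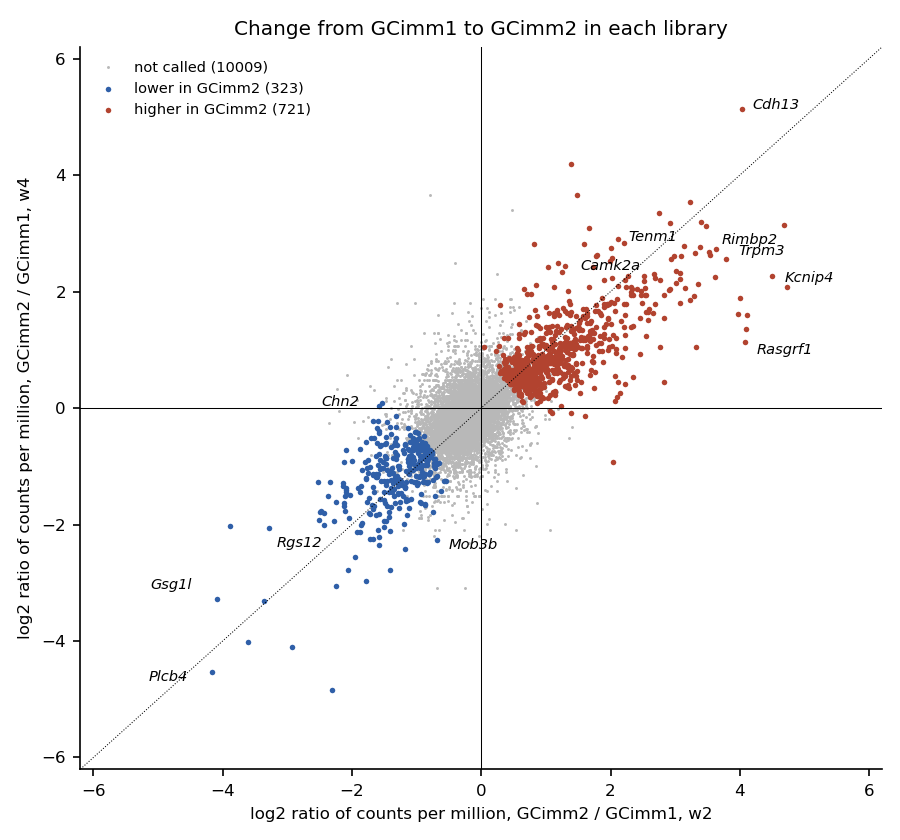
Change of each gene from GCimm1 to GCimm2 in w2 (horizontal axis) and in w4 (vertical axis), as the log2 ratio of CPM, for 11053 genes with at least 100 UMIs over the 4 sums and a UMI in each. Red and blue points are genes called higher or lower, the dotted line marks equal change, and nearly all called genes lie at the upper right or the lower left.

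The called genes were chosen by a fit over both weeks, which favours genes with the same direction in each. Among the 822 genes that rose, 813 had a ratio above 1 within w2 and also within w4, and among the 354 that fell, 352 had a ratio below 1 in both. The 95% counting interval of the ratio excluded no change for 813 that rose and 354 that fell in w2. In w4 it did so for 602 and 292. Across the 11053 genes with at least 100 UMIs, the log2 ratios of w2 and w4, which share no nuclei, had a Pearson r of 0.663, and 73.4% of these genes had the same sign in both weeks. This is a correlation across genes, which are not independent replicates, and all ratios share the authors' clustering. Among genes that rose and fell, the median log2 ratios were 0.86 and -1.10 in w4 against 1.13 and -1.32 in w2. The calls rested mainly on w2, which favours larger ratios there. These medians therefore cannot say whether changes were smaller in w4.

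The number of calls rested mainly on w2, where the sums of both clusters held more UMIs than in w4. With the GCimm1 and GCimm2 sums of w2 left out, 211 genes were called, and with those of w4 left out, 725. Of the 133 called genes that were picked to be named, 78 lost the call without w2 and 23 without w4. Among those given with values below, the calls lost without w2 were those of Asic2, Dach1, Fam19a1, Neto1, Rnf122, Grin2a, Grid1, Grin1, Cacng4, Gabrd, Gabra4, Gabrb1, Gabrg3, Slc12a5, Kcnh5, Kcnq5, Scn9a, Scn8a, Cacna1e, Cacnb2, Syt6, Homer2, Flrt1, Tenm4, Kirrel2, Igsf21, Efna5, Sema6a, Sema5b, Robo3, Draxin, Kif21b, Tac2, Inpp4b, Tead3, Cux2, Fzd2, Tcf7l2, Pde7b, Pde1c, Rgs8, Tacr1, Ccbe1, Csgalnact1, Ndst4, Hs3st5, St8sia2, Slc30a3, Meg3, Cpeb2, Msi2, Elavl2, Chd7, Ctnna3, Arhgap6, Gpi1, Mki67, Pdgfrb, Kcnmb2, Calcrl, Sox11 and Calb1. The calls lost without w4 were those of Grid1, Grin1, Cacng4, Gabrg3, Cacna1e, Cacnb2, Homer2, Tenm4, Kirrel2, Ephb1, Tead3, Fzd2, Tcf7l2, Cox6b2, Pdgfrb, Calcrl and Sox11. The 21 named calls that held under all 17 alternative settings were Kcnip4, Rimbp2, Trpm3, Gria3, Shisa6, Camk2a, Ryr2, Dlgap2, Lin7a, Lrrtm3, Tenm1, Pcdh7, Epha5, Mtus2, Nav3, Nell1, Prickle2, Pik3r1, Lmo7, Nebl and Ak5. Of the calls given with values below, those lost in DESeq2 were Adarb2, Grin2a, Grin1, Cacng4, Gabrb2, Gabrg3, Gabrd, Kcnmb2, Cacna1e, Homer2, Tenm4, Cdh9, Kirrel2, Efna5, Ephb1, Draxin, Kif21b, Tac2, Sox4, Inpp4b, Tead3, Tcf7l2, Fzd2, Pde1c, Cnr1, Tacr1, Ccbe1, St8sia2, Hs3st5, Ndst4, Meg3, Snhg11, Arhgap6, Mki67, Pdgfrb and Calcrl. Where the calls of a gene list moved by over 1.5 times with a week left out, the counts of higher and lower calls without that week stand in parentheses after its counts. DESeq2 on the same sums called 570 genes and the fit without the library term 646. Because expression in these very nuclei also defined the clusters, each p-value states how far the named clusters lie apart and is not independent evidence for the clusters.

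Among the largest increases, taken among called genes with at least 100 UMIs over the 4 sums and the same direction in both weeks, were genes of cell adhesion, ion channels and the presynapse. Cdh13 (T-cadherin, a cadherin with a lipid anchor; chromosome 8, positions 118283733 to 119324921, plus strand of GRCm38) rose from 3.56 CPM in w2 and 1.85 in w4 to 58.1 and 64.7 (log2 change 4.41 ± 0.38 (SE), adjusted p = 2.7e-12). Kcnip4, an auxiliary subunit of A-type potassium channels (chromosome 5, positions 48389502 to 49524907, minus strand), rose from 78.2 CPM in w2 and 136.0 in w4 to 1766 and 655 (log2 change 3.67 ± 0.39 (SE), adjusted p = 4.0e-10), and its 2 levels in GCimm2 lay far apart. Trpm3, a calcium-permeable channel, rose from 70.0 CPM in w2 and 122 in w4 to 966 and 719 (log2 change 3.36 ± 0.48 (SE), adjusted p = 6.0e-07). Kcnip4 and Trpm3 were higher in GCimm2 in both weeks, as was Cdh13, whose GCimm1 level in w4 rests on 3 UMIs.

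Asic2, a proton-gated sodium channel subunit, rose from 5.21 CPM in w2 and 10.5 in w4 to 138 and 44.4 (log2 change 4.11 ± 0.46 (SE), adjusted p = 2.1e-09). Rimbp2, which ties calcium channels to the presynaptic active zone, rose from 13.98 CPM in w2 and 19.7 in w4 to 161 and 126 (log2 change 3.40 ± 0.26 (SE), adjusted p = 6.9e-14). Adarb2, an RNA-binding protein of the adenosine deaminase family that lacks editing activity, rose from 46.3 CPM in w2 and 39.4 in w4 to 567 and 187 (log2 change 3.27 ± 0.39 (SE), adjusted p = 1.3e-08). The adhesion protein Igsf11 rose from 1.64 CPM in w2 and 2.46 in w4 to 18.4 and 21.6 (log2 change 3.55 ± 0.39), the secreted factor Fam19a1 from 3.20 CPM in w2 and 11.1 in w4 to 51.5 and 41.0 (3.39 ± 0.41) and Neto1, an auxiliary subunit of kainate receptors, from 1.74 CPM in w2 and 8.00 in w4 to 27.1 and 24.6 (3.35 ± 0.34). The others of the 12 largest increases were Slc6a7, a proline transporter, Dach1, a nuclear cofactor, and Tmem132e, each under 30 CPM in every sum. For Asic2, Slc6a7, Dach1, Fam19a1 and Neto1 the call was lost without w2, and for Adarb2 in DESeq2.

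Plcb4, a phospholipase C that acts downstream of Gq-coupled receptors (chromosome 2, positions 135659011 to 136014593, plus strand), had the largest decrease among called genes with at least 100 UMIs over the 4 sums, the same direction in both weeks and no clone name. It fell from 71.9 CPM in w2 and 70.2 in w4 to 3.99 and 3.02 (log2 change -4.11 ± 0.28 (SE), adjusted p = 1.8e-15), from 787 and 114 UMIs against 20 and 7. Gsg1l, an AMPA receptor auxiliary subunit (chromosome 7, positions 125878420 to 126082411, minus strand), fell from 88.6 CPM in w2 and 50.5 in w4 to 5.19 and 5.18 (log2 change -3.67 ± 0.30 (SE), adjusted p = 6.2e-13). In both genes each GCimm2 sum lay under each GCimm1 sum.

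Nhlh2, a helix-loop-helix transcription factor of young neurons, was counted in 116 and 10 UMIs against 6 and 0 (log2 change -3.29 ± 0.56). Svil, an actin-binding protein, was counted in 198 and 24 UMIs against 9 and 0 (-3.63 ± 0.52), so both were at 0 in GCimm2 of w4. Ltbp2, a matrix protein, fell from 36.9 CPM in w2 and 12.9 in w4 to 3.59 and 1.29 (log2 change -3.16 ± 0.33 (SE), adjusted p = 4.4e-10), Syt2, a fast calcium sensor of vesicle release, from 46.9 CPM in w2 and 22.2 in w4 to 6.19 and 1.29 (log2 change -2.91 ± 0.29 (SE), adjusted p = 1.5e-10), and Rgs12, an accelerator of G protein turn-off, from 29.2 CPM in w2 and 25.2 in w4 to 2.99 and 6.04 (log2 change -2.62 ± 0.28 (SE), adjusted p = 4.4e-10). The remaining largest decreases were L3mbtl4, Cdh4, Clic4, Hydin and Rnf122, with log2 changes between -3.51 and -2.15. Without w2 the calls of Hydin and Rnf122 were lost.

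Glutamate receptor subunits that were called in this fit were higher in GCimm2. Of 18 ionotropic subunits tested, 5 rose and none was called lower (2 and 0 without w2, 2 and 0 without w4), with a median log2 change of 0.36 beside -0.018 over all genes. At an unadjusted p under 0.05, 8 were higher and 2 lower, and DESeq2 called 3 higher and none lower. One of the 18 (Grin3b or Grik3) was called lower under 3 of the 17 alternatives. Grin2a, the NMDA receptor subunit that gains ground as synapses mature, rose from 437 CPM in w2 and 416 in w4 to 1102 and 959 (log2 change 1.43 ± 0.28 (SE), adjusted p = 1.8e-04), a call lost in DESeq2 and without w2. Grin1, the subunit that every NMDA receptor needs, rose from 317 CPM in w2 and 315 in w4 to 439 and 422 (log2 change 0.60 ± 0.19 (SE), adjusted p = 0.037). The Grin1 call was lost under 10 of the 17 alternatives, among them DESeq2, thinning and either week alone. Grin2b, the subunit of early NMDA receptors, was at 2110.1 CPM in w2 and 1995 in w4 against 2154 and 1946 and was not called (0.15 ± 0.22).

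Of the AMPA receptor subunits, Gria3 rose from 119.9 CPM in w2 and 139 in w4 to 280.3 and 287 (log2 change 1.30 ± 0.20 (SE), adjusted p = 3.6e-06). Gria2, whose edited form keeps calcium out of the channel, was at 2667 CPM in w2 and 2562 in w4 against 2099 and 2113 (not called, -0.16 ± 0.22), Gria1 at 2161 CPM in w2 and 2045 in w4 against 2592 and 2685 (not called, 0.48 ± 0.27) and Gria4 at 635 CPM in w2 and 501 in w4 against 625 and 454 (not called, 0.08 ± 0.18). The fitted change of Gria4 is within its SE and of the opposite sign to the CPM. The delta receptor subunit Grid1, which binds synaptic organisers, rose from 523 CPM in w2 and 473 in w4 to 838 and 723 (log2 change 0.80 ± 0.22 (SE), adjusted p = 0.0096). None of the 5 kainate receptor subunits was called, and their fitted log2 changes ran from -0.55 (Grik3) to 0.41 (Grik5).

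Of 6 metabotropic receptors tested, 2 rose and 4 were not called. Grm3, a Gi-coupled receptor, rose from 17.9 CPM in w2 and 10.5 in w4 to 66.6 and 47.9 (log2 change 2.01 ± 0.27 (SE), adjusted p = 2.3e-07). Grm5 was higher in both weeks, at 1556 CPM in w2 and 1491 in w4 against 2270.0 and 2045, and was not called (0.66 ± 0.26, adjusted p = 0.12). Of the 17 alternative settings, 5 called it. Grm7 was at 970.5 CPM in w2 and 1176 in w4 against 1594 and 1929 (not called, 0.87 ± 0.30, adjusted p = 0.059), although 10 of the 17 alternative settings called it. For Gria3 and Grm3 both GCimm2 sums lay above both GCimm1 sums.

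**Figure D2:**
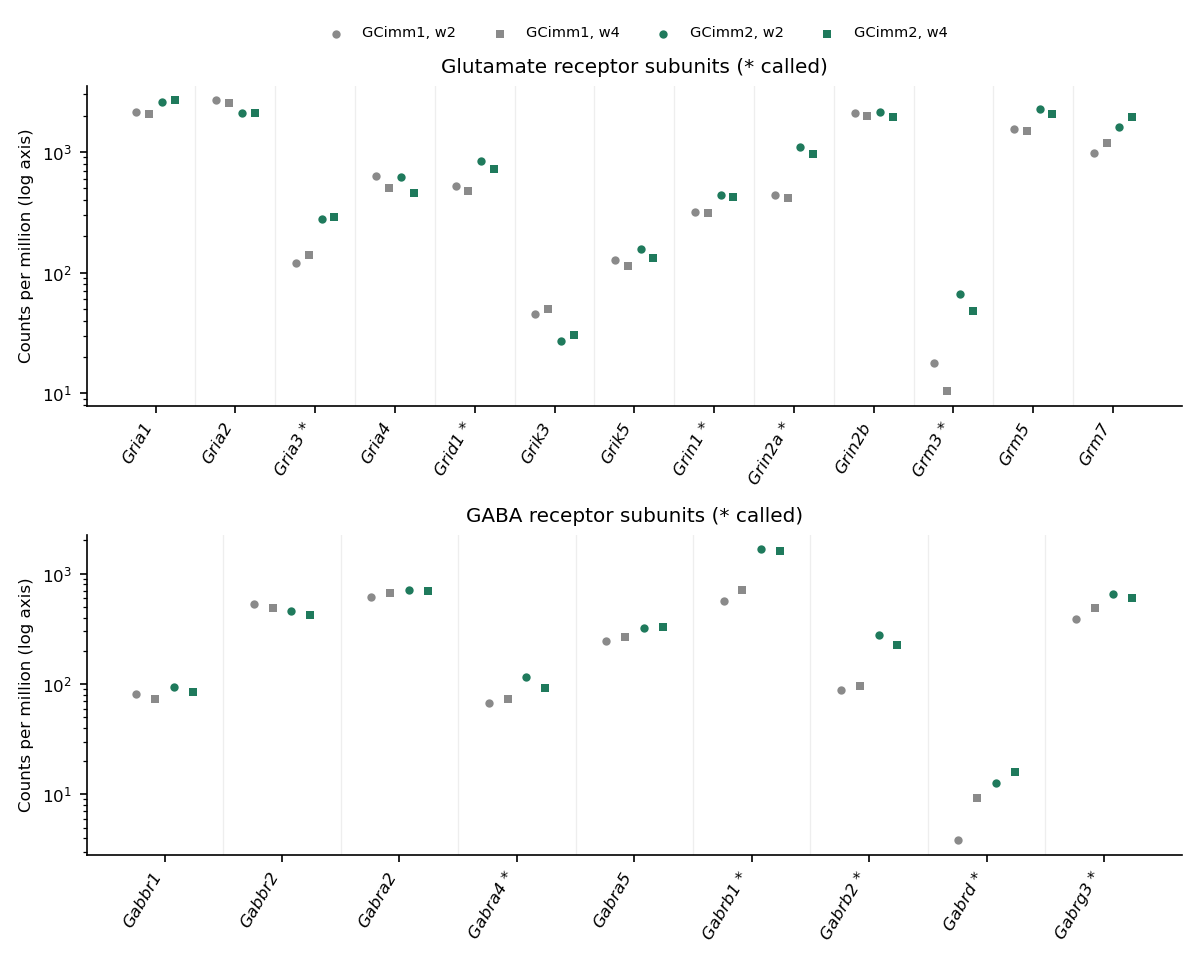
Levels of the glutamate receptor (top) and GABA receptor (bottom) subunits that are named in the text, in CPM on a log axis, with 1 point for each sum (grey, GCimm1; green, GCimm2; circles, w2; squares, w4). Called subunits carry an asterisk, and Gria3, Grin2a, Grm3, Gabrb1 and Gabrb2 show the green points above the grey ones.

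Of 24 auxiliary proteins of these receptors tested, 7 rose (Neto1, Shisa6, Cacng3, Shisa9, Olfm3, Cacng8 and Sorcs2) and 1 fell (3 and 0 without w2, 5 and 0 without w4). Shisa6, which holds AMPA receptors open at the postsynapse, rose from 53.3 CPM in w2 and 74.5 in w4 to 267 and 309 (log2 change 2.36 ± 0.20 (SE), adjusted p = 1.9e-12). Cacng4, a TARP subunit of AMPA receptors, fell from 54.1 CPM in w2 and 65.9 in w4 to 26.1 and 36.7 (log2 change -0.78 ± 0.22 (SE), adjusted p = 0.015). The Cacng4 call was lost under 10 of the 17 alternatives, among them DESeq2, thinning and either week alone. The TARPs Cacng3 and Cacng8 were among those that rose, and Gsg1l, which this list does not hold, fell as given above.

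Of 13 GABA receptor subunits tested, 6 rose and none was called lower (1 and 0 without w2), with a median log2 change of 0.51; at an unadjusted p under 0.05, 8 were higher and none lower. DESeq2 called 2 higher, Gabrb1 and Gabra4. Gabrb1 rose from 560.3 CPM in w2 and 716 in w4 to 1664 and 1617 (log2 change 1.52 ± 0.24 (SE), adjusted p = 3.2e-06) and Gabrb2 from 88.4 CPM in w2 and 95.4 in w4 to 279 and 225 (log2 change 1.63 ± 0.25 (SE), adjusted p = 2.1e-06). The changes came to 2.88-fold (Gabrb1) and 3.09-fold (Gabrb2) in the fit; the Gabrb2 call was lost in DESeq2 and the Gabrb1 call without w2.

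Gabra4 rose from 67.9 CPM in w2 and 73.2 in w4 to 115 and 92.3 (log2 change 0.74 ± 0.19 (SE), adjusted p = 0.007) and Gabrg3 from 392 CPM in w2 and 485 in w4 to 657 and 599 (log2 change 0.69 ± 0.22 (SE), adjusted p = 0.037). Gabrd, the subunit of extrasynaptic receptors that carry tonic currents, rose from 3.84 CPM in w2 and 9.23 in w4 to 12.8 and 15.97 (log2 change 1.57 ± 0.34 (SE), adjusted p = 7.2e-04), from 42 and 15 UMIs against 64 and 37. Gabra2 (610.3 CPM in w2 and 667 in w4 against 709.9 and 700.4) and Gabra5 (245 CPM in w2 and 268 in w4 against 325 and 327) were not called, and Gabra5 had an adjusted p of 0.03 with a fold change under 1.5. The GABA-B receptor subunits were not called either (Gabbr1 0.36 ± 0.16, Gabbr2 -0.04 ± 0.21).

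Among 10 transmitter transporters, 3 rose (1 without w2). Slc12a5, the chloride exporter KCC2, rose from 24.8 CPM in w2 and 24.6 in w4 to 56.9 and 46.6 (log2 change 1.25 ± 0.19 (SE), adjusted p = 3.6e-06). Slc12a2, the chloride importer NKCC1, was at 48.2 CPM in w2 and 48.6 in w4 in GCimm1 and at 47.5 and 43.2 in GCimm2 (not called, 0.09 ± 0.18, adjusted p = 0.88; named after its values were seen). Its fitted change is within its SE and of the opposite sign to the CPM. Slc17a7, the vesicular glutamate transporter VGLUT1, rose from 15.5 CPM in w2 and 28.9 in w4 to 65.8 and 66.5 (log2 change 1.91 ± 0.22 (SE), adjusted p = 2.8e-09). Slc17a6, the vesicular glutamate transporter VGLUT2, was at 74.6 CPM in w2 and 58.5 in w4 against 52.9 and 36.2 (not called, -0.41 ± 0.19). Slc6a11, a GABA transporter, was the third that rose, and the call of Slc12a5 was lost without w2.

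Of 63 potassium channel genes and their partners tested, 20 rose and 3 fell (7 and 0 without w2), and the median log2 change was 0.50. Those that rose included A-type channel pore subunits (Kcnd2, Kcnd3, Kcna4) and their partners (Kcnip1, Kcnip2, Kcnip4, Dpp6), the G protein-gated channels Kcnj3, Kcnj6 and Kcnj9, and ether-a-go-go type subunits (Kcnh1, Kcnh3, Kcnh5). Kcnh5 was rare, with 6 and 2 UMIs against 35 and 11 (log2 change 3.33 ± 0.53 (SE), adjusted p = 3.2e-06). Those that fell included Kcnq5, a subunit of the M current, from 330.3 CPM in w2 and 182 in w4 to 109 and 83.3 (log2 change -1.25 ± 0.23 (SE), adjusted p = 7.5e-05), and Kcnmb2, a partner of BK channels, from 117 CPM in w2 and 89.2 in w4 to 47.5 and 39.7 (log2 change -1.09 ± 0.20 (SE), adjusted p = 9.3e-05). In each of these genes both GCimm2 sums lay under both GCimm1 sums.

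Of 13 sodium channel genes 2 rose (0 without w2). Scn8a, the main channel of the axon initial segment, rose from 219 CPM in w2 and 219.7 in w4 to 384 and 359 (log2 change 0.92 ± 0.18 (SE), adjusted p = 2.7e-04) and Scn9a from 18.9 CPM in w2 and 25.2 in w4 to 51.9 and 57.4 (log2 change 1.52 ± 0.22 (SE), adjusted p = 1.1e-06). Of 16 calcium channel subunits 3 rose: Cacna1e (R-type) from 570.1 CPM in w2 and 748 in w4 to 1080.2 and 1097 (log2 change 0.90 ± 0.25 (SE), adjusted p = 0.012), the accessory Cacnb2 from 397 CPM in w2 and 478 in w4 to 757 and 636 (log2 change 0.85 ± 0.23 (SE), adjusted p = 0.011) and the T-type subunit Cacna1h (0 without w2, 0 and 1 without w4). No sodium or calcium channel gene was called lower in this fit, although 1 calcium channel gene was called lower under 8 of the 17 alternatives. At an unadjusted p under 0.05, 7 sodium channel genes were higher and none lower, and 4 calcium channel genes were higher and 1 lower. DESeq2 called 2 and 1 higher. The calls of Cacna1e and Cacnb2 were lost in either week alone.

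Of 33 genes of calcium stores and handling tested, 15 rose and 1 fell (2 and 1 without w2), with a median log2 change of 0.54. Camk2a, the alpha subunit of the kinase that plasticity of glutamate synapses depends on, rose from 96.7 CPM in w2 and 115 in w4 to 624 and 540.3 (log2 change 2.63 ± 0.21 (SE), adjusted p = 9.2e-14). Ryr2, a calcium release channel of the endoplasmic reticulum, rose from 318 CPM in w2 and 230.2 in w4 to 1086 and 782 (log2 change 1.92 ± 0.25 (SE), adjusted p = 5.4e-08). The others that rose were the release and junction proteins Ryr3 and Jph1, the exchangers and pumps Slc8a2, Slc8a3, Slc24a2, Slc24a4, Atp2b1 and Atp2b2, and the calcium sensors and buffers Calb1, Camkk1, Ncald, Caln1 and Hpca. The fitted change of Camk2a was 6.21-fold, and its level was similar in both weeks.

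The single decrease in this list was Calb2 (calretinin), from 115 CPM in w2 and 65.2 in w4 to 27.7 and 17.7 (log2 change -1.83 ± 0.22 (SE), adjusted p = 8.5e-09). Calb1 (calbindin) rose from 4.57 CPM in w2 and 18.5 in w4 to 20.2 and 22.0 (log2 change 1.58 ± 0.28 (SE), adjusted p = 3.2e-05). In w4 alone its log2 ratio was 0.25 with a counting interval from -0.43 to 0.95, which includes no change. Calb1 was also higher in w4 than in w2 in NB1, the first neuroblast cluster (17.9 against 6.36 CPM); the part of the library in the smaller change of w4 was not tested. The call of Calb1 was lost without w2 and in male nuclei alone.

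Of 69 genes of transmitter release tested, 17 rose and 3 fell (3 and 2 without w2, 7 and 3 without w4), and 59 had a change above 0. Beside Rimbp2, Syt17 rose from 2.65 CPM in w2 and 3.69 in w4 to 20.2 and 33.2 (log2 change 3.22 ± 0.28 (SE), adjusted p = 3.3e-12), and the list held further active zone and priming proteins (Unc13a, Rims4, Cadps2, Rph3a, Doc2b), vesicle proteins (Sv2c, Syn2) and Nsf, which takes fusion complexes apart. The 3 that fell were all synaptotagmins (Syt2, Syt6 and Syt9), while Syt7, Syt10 and Syt17 were among those that rose. Syt6 was counted in 87 and 5 UMIs against 1 and 0.

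Of 56 postsynaptic scaffold and signalling genes tested, 14 rose and 2 fell (4 and 1 without w2, 8 and 1 without w4), with a median log2 change of 0.33. Dlgap2, a scaffold that binds PSD-95, rose from 136.4 CPM in w2 and 184 in w4 to 802 and 709 (log2 change 2.45 ± 0.30 (SE), adjusted p = 2.1e-08) and Lin7a, an adaptor of the same complexes, from 47.4 CPM in w2 and 72.0 in w4 to 176 and 247 (log2 change 1.99 ± 0.20 (SE), adjusted p = 2.6e-10). Dlg2 (PSD-93), Baiap2, Tanc1, Iqsec1, Iqsec2, Psd3, Cnksr2, Agap2, Slitrk2, Lrfn2 and Lrfn5 rose too. Lrrtm3, a postsynaptic partner of neurexins, fell from 387 CPM in w2 and 369 in w4 to 112 and 159.7 (log2 change -1.32 ± 0.21 (SE), adjusted p = 7.3e-06). Homer2, a scaffold of group 1 metabotropic receptors, fell from 29.97 CPM in w2 and 22.2 in w4 to 14.4 and 13.4 (log2 change -0.78 ± 0.25 (SE), adjusted p = 0.037). The Homer2 call was lost under 9 of the 17 alternatives, among them DESeq2, thinning and either week alone.

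Of 41 trans-synaptic adhesion genes tested, 10 rose and 2 fell (5 and 0 without w2), 24.4% and 4.88% beside 5.84% and 2.52%. Calls were commoner among long genes (26.0% and 7.49% of those over 300 kb), and no list was set beside genes of like span. Tenm1 rose from 33.6 CPM in w2 and 70.8 in w4 to 331 and 447 (log2 change 3.17 ± 0.26 (SE), adjusted p = 6.2e-13) and its relative Tenm4 fell from 1079 CPM in w2 and 787 in w4 to 496 and 445 (log2 change -0.83 ± 0.25 (SE), adjusted p = 0.027); both are teneurins, which bind latrophilins across the cleft. Il1rapl2, a synaptic organiser of the interleukin receptor family, rose from 10.7 CPM in w2 and 8.62 in w4 to 95.4 and 35.8 (log2 change 2.99 ± 0.33 (SE), adjusted p = 1.4e-09). Flrt1, which binds latrophilins and Unc5 receptors, fell from 283 CPM in w2 and 229 in w4 to 136.1 and 109 (log2 change -0.90 ± 0.17 (SE), adjusted p = 8.7e-05). The call of Tenm4 was lost in DESeq2 and in either week alone, that of Flrt1 without w2.

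Of 33 cadherins and protocadherins, 7 rose and 3 fell (3 and 2 without w2), 21.2% and 9.09% beside 5.84% and 2.52%. Cdh9, a cadherin of dentate to CA3 connections, rose from 138 CPM in w2 and 195 in w4 to 459 and 475 (log2 change 1.69 ± 0.27 (SE), adjusted p = 4.7e-06), and Pcdh7 fell from 485 CPM in w2 and 440.1 in w4 to 99.8 and 114 (log2 change -1.96 ± 0.23 (SE), adjusted p = 3.5e-09). Cdh4 (R-cadherin) fell from 20.7 CPM in w2 and 12.3 in w4 to 4.19 and 0.43 (log2 change -2.48 ± 0.49 (SE), adjusted p = 2.0e-04). Of 44 adhesion genes of the immunoglobulin family, 18 rose and 3 fell (3 and 0 without w2), with a median log2 change of 0.55. Called shares were 40.9% and 6.82%, beside 5.84% and 2.52%. Among those that rose were contactins and their partners (Cntn1, Cntn3, Cntn4, Cntn5, Cntn6, Cntnap2 and Cntnap5c), beside Kirrel3, Icam5, Ncam2, Nrcam, Dscam, Negr1, Cadm1, Mdga1 and Mdga2. The members that fell were Igsf9, Igsf10 and Igsf21, the latter from 18.3 CPM in w2 and 19.1 in w4 to 6.19 and 6.47 (log2 change -1.38 ± 0.31 (SE), adjusted p = 0.0012). Kirrel2 was called at 1 and 0 UMIs against 7 and 2.

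Of 25 semaphorins, neuropilins and plexins, 1 rose and 4 fell (0 and 1 without w2), with a median log2 change of -0.18. Sema6a, a membrane semaphorin, rose from 45.1 CPM in w2 and 72.6 in w4 to 101 and 113 (log2 change 1.11 ± 0.18 (SE), adjusted p = 8.2e-06). The secreted repellent Sema3a fell from 62.0 CPM in w2 and 68.3 in w4 to 23.1 and 19.9 (log2 change -1.39 ± 0.21 (SE), adjusted p = 2.0e-06), Sema5b from 52.6 CPM in w2 and 48.0 in w4 to 10.4 and 19.9 (log2 change -1.72 ± 0.25 (SE), adjusted p = 9.1e-07), and Sema3c and Plxnb1 fell as well. Of 18 Eph receptors and ephrins, 4 rose and 2 fell (1 and 1 without w2). Epha5 rose from 60.6 CPM in w2 and 110.2 in w4 to 532 and 761 (log2 change 3.13 ± 0.24 (SE), adjusted p = 6.9e-14), whereas its ligand Efna5 fell from 122 CPM in w2 and 85.6 in w4 to 38.9 and 26.8 (log2 change -1.5 ± 0.29 (SE), adjusted p = 1.3e-04) and Ephb1 fell from 421 CPM in w2 and 251 in w4 to 210.1 and 101 (log2 change -0.96 ± 0.23 (SE), adjusted p = 0.0031).

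Of 16 slit, robo and netrin pathway genes, 4 rose (Robo2, Robo3, Slit2 and Unc5c) and Draxin, a guidance antagonist of Wnt and netrin signals, fell from 35.4 CPM in w2 and 52.3 in w4 to 15.0 and 22.0 (log2 change -1.07 ± 0.22 (SE), adjusted p = 2.9e-04). Without w2 none of the 16 was called, and without w4 2 were higher and 1 lower. Robo3 was counted in 7 and 1 UMIs against 20 and 4. Of 42 growth cone and young microtubule genes, 4 rose and 1 fell (2 and 0 without w2, 2 and 1 without w4). These are 9.52% and 2.38% beside 5.84% and 2.52% over all genes. Mtus2, a microtubule tip protein, rose from 60.5 CPM in w2 and 86.2 in w4 to 195 and 238 (log2 change 1.75 ± 0.17 (SE), adjusted p = 7.8e-11) and Nav3, a navigator of growing neurites, from 303 CPM in w2 and 349 in w4 to 907 and 806 (log2 change 1.57 ± 0.24 (SE), adjusted p = 3.7e-06). Kif21b, a kinesin that restrains microtubule growth, fell from 92.6 CPM in w2 and 81.9 in w4 to 44.7 and 55.7 (log2 change -0.68 ± 0.18 (SE), adjusted p = 0.0088).

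Of 15 markers of immature neurons tested, 8 fell and none was called higher (0 higher and 3 lower without w2), and no member had a change above 0; 10 were lower at an unadjusted p under 0.05 and DESeq2 called 4 lower. Nell1, a secreted protein, fell from 507 CPM in w2 and 494 in w4 to 93.8 and 142 (log2 change -1.94 ± 0.25 (SE), adjusted p = 6.7e-08) and Tac2, which encodes neurokinin B, from 64.4 CPM in w2 and 11.7 in w4 to 15.0 and 3.45 (log2 change -1.89 ± 0.33 (SE), adjusted p = 4.1e-05). Sox4 fell from 141 CPM in w2 and 100.3 in w4 to 56.1 and 41.9 (log2 change -1.15 ± 0.20 (SE), adjusted p = 2.4e-05) and Sox11, its close relative, from 565 CPM in w2 and 500.4 in w4 to 319.8 and 278 (log2 change -0.68 ± 0.18 (SE), adjusted p = 0.0072). Of 19 markers of mature granule cells tested, 12 rose and 1 fell (5 and 0 without w2), with a median log2 change of 1.46. The single member that fell was Inpp4b, a phosphoinositide phosphatase, from 31.7 CPM in w2 and 20.3 in w4 to 8.18 and 3.45 (log2 change -1.92 ± 0.42 (SE), adjusted p = 1.0e-03). The study used several of these markers to name clusters of these same nuclei, so the direction of both lists is not independent evidence.

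Of 173 transcription factors tested, 12 rose and 17 fell (2 and 2 without w2), and the median log2 change was -0.12. The 6.94% that rose was near the 5.84% over all genes tested, and the 9.83% that fell stood beside 2.52%. Beside Sox4 and Sox11, those that fell included Cux2, a homeobox factor of dendrite branching, from 20.0 CPM in w2 and 20.3 in w4 to 5.59 and 5.18 (log2 change -1.73 ± 0.30 (SE), adjusted p = 3.0e-05), and Sox5, Npas3, Scrt2, Rarb, Id2, Hlf, Tshz1, Tead1 and Stat5b. Tead3 was counted in 32 and 2 UMIs against 2 and 1. St18, a zinc finger factor of the Myt1 family, rose from 16.4 CPM in w2 and 15.4 in w4 to 87.8 and 63.4 (log2 change 2.39 ± 0.23 (SE), adjusted p = 5.6e-11), and Npas2, a clock factor, with 21 and 2 UMIs against 29 and 30 (log2 change 2.29 ± 0.51 (SE), adjusted p = 8.9e-04). Meis2, Zbtb16, Klf8, Klf9, Klf10, Nfatc2, Mkx, Bhlhe41, Hivep2 and Csrnp3 were the others that rose.

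Of 84 chromatin regulators, 1 rose and 2 fell (0 and 0 without w2, 0 and 1 without w4). These are 1.19% and 2.38%, no more than over all genes. Chd7, a remodeller active in neural progenitors, fell from 49.4 CPM in w2 and 41.2 in w4 to 14.6 and 20.3 (log2 change -1.31 ± 0.24 (SE), adjusted p = 4.9e-05). Of 38 splicing and RNA-binding regulators 4 rose and 4 fell (1 and 0 without w2). The Musashi proteins Msi1 and Msi2, translation regulators of progenitors, both fell, Msi2 from 196 CPM in w2 and 170.5 in w4 to 66.8 and 83.3 (log2 change -1.14 ± 0.23 (SE), adjusted p = 3.6e-04). Elavl2, a neuronal RNA-stabilising protein, fell from 114 CPM in w2 and 99.7 in w4 to 48.5 and 39.7 (log2 change -1.11 ± 0.21 (SE), adjusted p = 1.3e-04), and Cpeb2, which controls translation at poly(A) tails, rose from 21.5 CPM in w2 and 14.2 in w4 to 45.3 and 28.9 (log2 change 1.17 ± 0.22 (SE), adjusted p = 7.7e-05).

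In the Notch and Wnt pathways 7 of 67 genes tested rose and 10 fell (2 and 1 without w2, 3 and 4 without w4). The ligands Wnt5a and Wnt5b, the antagonist Sfrp1, the receptor Fzd2 and the nuclear effectors Tcf7l2 and Rbpj were lower, whereas Ror1, a receptor for Wnt5a, rose from 4.66 CPM in w2 and 6.77 in w4 to 25.9 and 25.9 (log2 change 2.5 ± 0.30 (SE), adjusted p = 9.7e-09) and Prickle2, a planar polarity protein, from 86.3 CPM in w2 and 94.8 in w4 to 336 and 274 (log2 change 1.93 ± 0.22 (SE), adjusted p = 2.0e-09). Tcf7l2 fell from 7.04 CPM in w2 and 6.16 in w4 to 2.19 and 1.29 (log2 change -1.66 ± 0.49 (SE), adjusted p = 0.017) and Fzd2 was counted in 40 and 4 UMIs against 2 and 1; both calls were lost in DESeq2 and in either week alone. Of 65 growth factor genes and their effectors, 9 rose and 5 fell (2 and 2 without w2). Pik3r1, the regulatory subunit of phosphoinositide kinase, fell from 485 CPM in w2 and 570.0 in w4 to 165 and 238 (log2 change -1.25 ± 0.19 (SE), adjusted p = 1.5e-06), and the ligand Tgfb2 from 154 CPM in w2 and 134.2 in w4 to 56.1 and 56.5 (log2 change -1.21 ± 0.18 (SE), adjusted p = 1.6e-06). Grb14, an adaptor that inhibits insulin receptor signals, rose from 40.1 CPM in w2 and 39.4 in w4 to 185 and 135.5 (log2 change 2.20 ± 0.18 (SE), adjusted p = 1.2e-12), and Ntrk2, the receptor of Bdnf, rose, a call lost in either week alone. Bdnf rose too, a call lost in DESeq2, without w2 and in male nuclei alone.

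Of 73 genes of cyclic nucleotide and diacylglycerol signalling, 19 rose and 3 fell (2 and 1 without w2). Dgkg, a diacylglycerol kinase, rose from 8.86 CPM in w2 and 20.3 in w4 to 60.5 and 93.2 (log2 change 2.76 ± 0.27 (SE), adjusted p = 4.4e-11), with Dgkb, Dgkh and Dgkz, and the phosphodiesterase Pde7b rose from 2.92 CPM in w2 and 6.16 in w4 to 17.2 and 19.4 (log2 change 2.42 ± 0.36 (SE), adjusted p = 1.0e-06), with Pde1a, Pde2a, Pde4a, Pde6a and Pde8b. Pde1c fell from 71.4 CPM in w2 and 78.8 in w4 to 25.7 and 55.7 (log2 change -0.87 ± 0.26 (SE), adjusted p = 0.021). Plcb4, which makes diacylglycerol, and Prkca, a kinase it activates, fell, while the kinase Prkce rose.

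Of 35 RGS proteins and G protein subunits tested, 8 rose and 1, Rgs12, fell (0 and 1 without w2, 4 and 1 without w4). Rgs8 was counted in 13 and 2 UMIs against 47 and 15 (log2 change 2.91 ± 0.43 (SE), adjusted p = 9.5e-07). Of 34 receptors for amines, acetylcholine and peptides, 9 rose and 3 fell (2 and 1 without w2). Cnr1, the cannabinoid receptor of axon terminals, fell from 201 CPM in w2 and 172 in w4 to 78.6 and 65.2 (log2 change -1.21 ± 0.17 (SE), adjusted p = 2.8e-07), and Tacr1, the receptor of substance P, from 127 CPM in w2 and 188 in w4 to 46.3 and 90.2 (log2 change -1.11 ± 0.19 (SE), adjusted p = 1.7e-05). Galr1, a galanin receptor, was counted in 24 and 7 UMIs against 46 and 18 (log2 change 1.83 ± 0.47 (SE), adjusted p = 0.0052), and the others that rose were Adra1a, Oprm1, Npy1r, Htr4, Htr1f, Chrm1, Chrm3 and Chrna5. Among 13 neuropeptide and secreted markers, Nell1, Tac2 and Gal fell and Ccbe1 rose from 233 CPM in w2 and 244 in w4 to 538 and 426 (log2 change 1.18 ± 0.21 (SE), adjusted p = 4.2e-05). Without w2, 1 of these 13 was called, lower.

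Of 74 enzymes that build sulphated or sialylated sugars, 10 rose and 3 fell (3 and 0 without w2). St8sia2, which adds polysialic acid to Ncam1 in young neurons, fell from 102 CPM in w2 and 109.6 in w4 to 46.9 and 59.6 (log2 change -0.85 ± 0.17 (SE), adjusted p = 3.9e-04), and Hs3st5, a heparan sulfotransferase, from 19.9 CPM in w2 and 14.8 in w4 to 4.79 and 2.16 (log2 change -2.09 ± 0.44 (SE), adjusted p = 5.4e-04). Ndst4, another heparan sulfate enzyme, rose from 5.39 CPM in w2 and 4.31 in w4 to 50.7 and 15.5 (log2 change 3.17 ± 0.28 (SE), adjusted p = 1.2e-11), and the chondroitin enzyme Csgalnact1 rose as well, with 8 and 1 UMIs against 45 and 5 (log2 change 3.29 ± 0.61 (SE), adjusted p = 5.2e-05). Of 38 genes for the sodium pump, its partners and solute carriers, 12 rose (6 without w2) and none was called lower (1 at an unadjusted p under 0.05; DESeq2 called 10 higher and none lower). Slc30a3, which loads zinc into the vesicles of mossy fibres, rose from 2.47 CPM in w2 and 9.85 in w4 to 24.7 and 20.3 (log2 change 2.71 ± 0.36 (SE), adjusted p = 2.1e-07).

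Long non-coding RNAs of imprinted and nuclear loci rose in 6 of 14 cases (3 without w2). Meg3, of the imprinted Dlk1-Dio3 locus, rose from 1086 CPM in w2 and 994 in w4 to 3101 and 2516 (log2 change 1.59 ± 0.31 (SE), adjusted p = 1.5e-04), and Rian and Mirg, of the same locus, rose with it. Snhg11 rose from 262 CPM in w2 and 144 in w4 to 813 and 395 (log2 change 1.70 ± 0.32 (SE), adjusted p = 1.3e-04).

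None of 76 cytosolic ribosome genes was called in the edgeR fit or in DESeq2. By edgeR, 2 were called lower with only the 4 sums and when thinned to 2000 UMIs per nucleus. In the fit 9 were lower at an unadjusted p under 0.05 and none higher, and their median log2 change was -0.22. Of 84 respiratory chain genes, 1 fell, Cox6b2, with 66 and 12 UMIs against 6 and 0, a call lost without w4, and their median was -0.082. Of 31 genes of glycolysis and energy metabolism, 4 rose (2 without w2). Ak5, an adenylate kinase of neurons, rose from 176 CPM in w2 and 183 in w4 to 631 and 567 (log2 change 1.90 ± 0.21 (SE), adjusted p = 2.4e-09) and Gpi1, of glycolysis, from 45.1 CPM in w2 and 49.9 in w4 to 110.1 and 83.7 (log2 change 1.24 ± 0.18 (SE), adjusted p = 5.4e-07). Of 22 activity-induced genes, 3 rose (Inhba, Pcsk1 and Bdnf). None of this list was called in DESeq2, without w2 or in male nuclei alone.

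Of 87 actin and small GTPase regulators, 12 rose and 8 fell (4 and 1 without w2, 5 and 4 without w4). Nebl, an actin-binding nebulette, rose from 42.6 CPM in w2 and 49.2 in w4 to 324 and 289 (log2 change 2.91 ± 0.26 (SE), adjusted p = 3.4e-12) and Lmo7, which links actin to junctions, from 15.7 CPM in w2 and 35.7 in w4 to 127 and 183 (log2 change 2.91 ± 0.23 (SE), adjusted p = 9.1e-14). Ctnna3, an alpha catenin, fell from 397 CPM in w2 and 286 in w4 to 129.7 and 126 (log2 change -1.24 ± 0.21 (SE), adjusted p = 2.1e-05), and Arhgap6 from 139.7 CPM in w2 and 94.2 in w4 to 38.1 and 57.8 (log2 change -1.23 ± 0.26 (SE), adjusted p = 4.9e-04). Of 27 cell cycle genes, Cdk4, Cdk6 and Mcm7 fell (11.1%, beside 2.52% over all genes) and Ccnd2 and Mki67 rose (7.41%, near the 5.84% over all genes), all 5 calls being lost in DESeq2 and without w2 (1 and 1 called without w4). Mki67 was counted in 6 and 2 UMIs against 16 and 6 and Top2a, which dividing cells need, in 2 and 0 UMIs against 0 and 0.

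**Figure D3:**
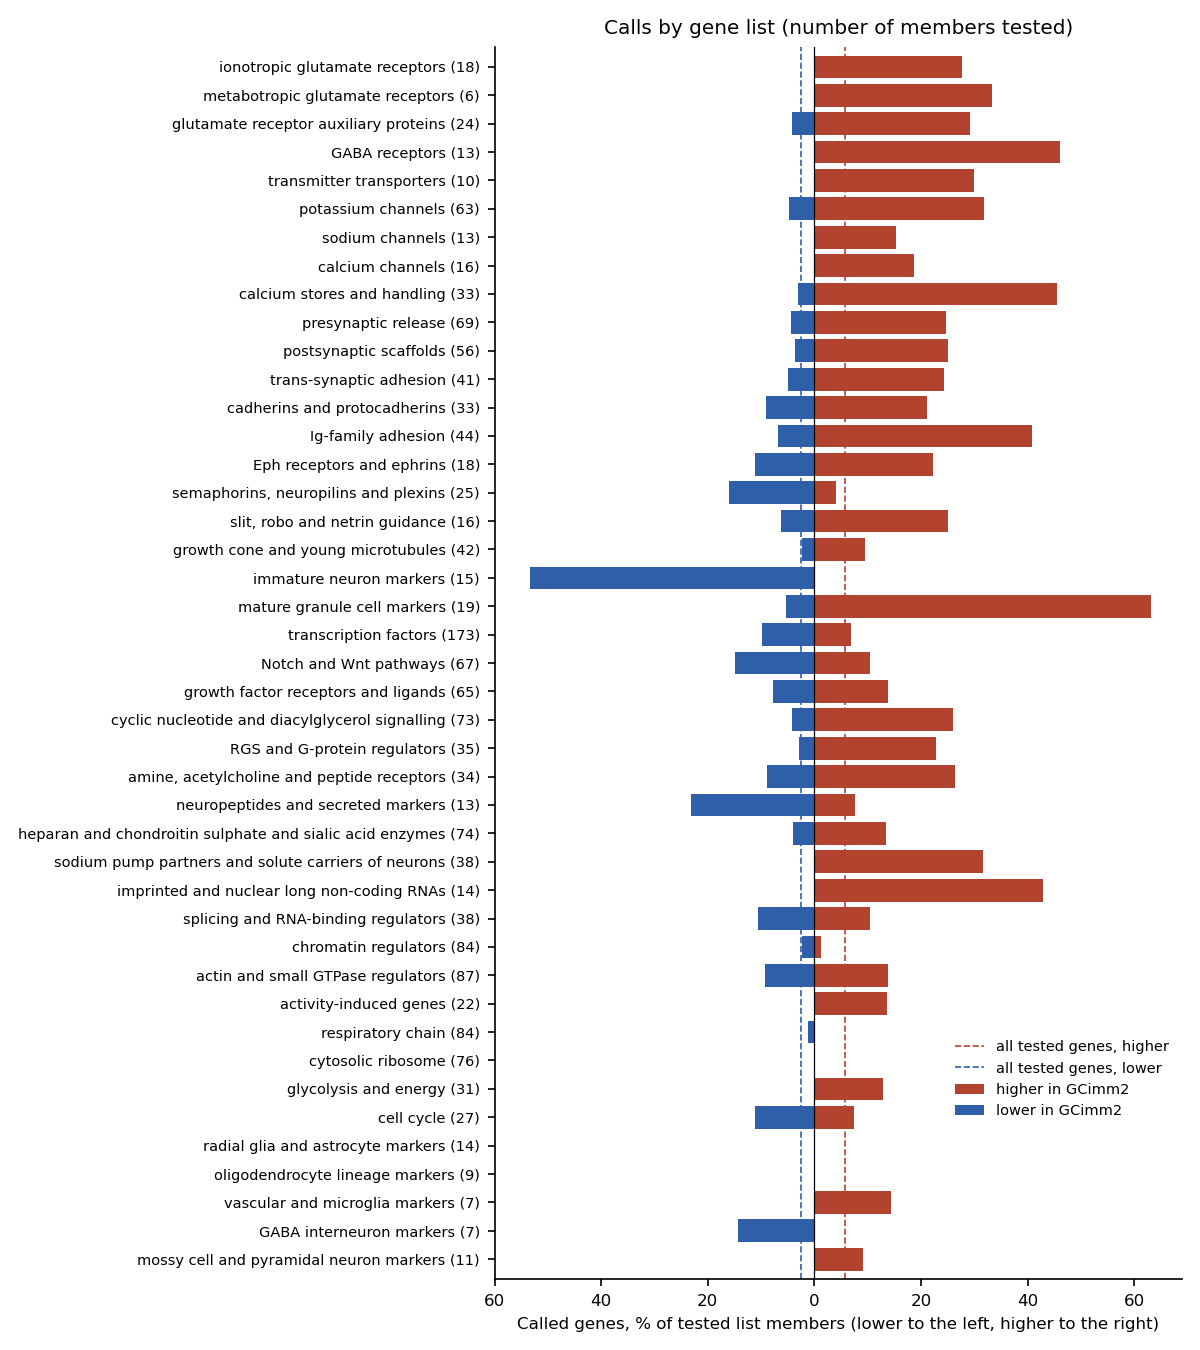
Share of the tested members of each gene list that was called higher (red, to the right) or lower (blue, to the left) in GCimm2, in percent, with the number of members tested in parentheses. Dashed lines mark the shares over all genes tested, 5.84% higher and 2.52% lower; for example, calcium handling and Ig-family adhesion reach past the red line, and immature neuron markers and semaphorins past the blue line.

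Levels in the neighbouring clusters of the same library, set beside these values, showed several courses. Plcb4 went from 216 CPM in NB1 of w2 through 71.9 in GCimm1 to 3.99 in GCimm2, and in w4 GCyoung, the next stage, held 2.28. Camk2a in w4 was at 60.5 in NB1, 115 in GCimm1, 540.3 in GCimm2 and 1159 in GCyoung. Kcnip4 was higher in NB1 of w2 (374 CPM) than in GCimm1 (78.2), and in w4 reached 9026 in GCyoung. Dach1 went from 42.1 in NB1 of w2 to 1.55 in GCimm1 and 26.5 in GCimm2.

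Of 77 named genes that rose, 19 were lower in GCyoung than in GCimm2 of w4 and 58 were higher. Of 56 that fell, 43 were lower still and 12 were higher. Sema6a in w4 was at 72.6 in GCimm1, 113 in GCimm2 and 8.87 in GCmat1, and GCyoung lay between GCimm2 and GCmat1. Gabrg3 in w4 was at 485, 599 and 264 in the clusters GCimm1, GCimm2 and GCyoung. Scn9a took the same course, with 25.2, 57.4 and 16.6 CPM, and so did Snhg11, with 144, 395 and 165. Gsg1l went the other way, from 5.18 in GCimm2 of w4 to 33.5 in GCyoung. These courses share the GCimm2 sums with the comparison above, were picked from named genes after their values were seen, and were not tested.

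**Figure D4:**
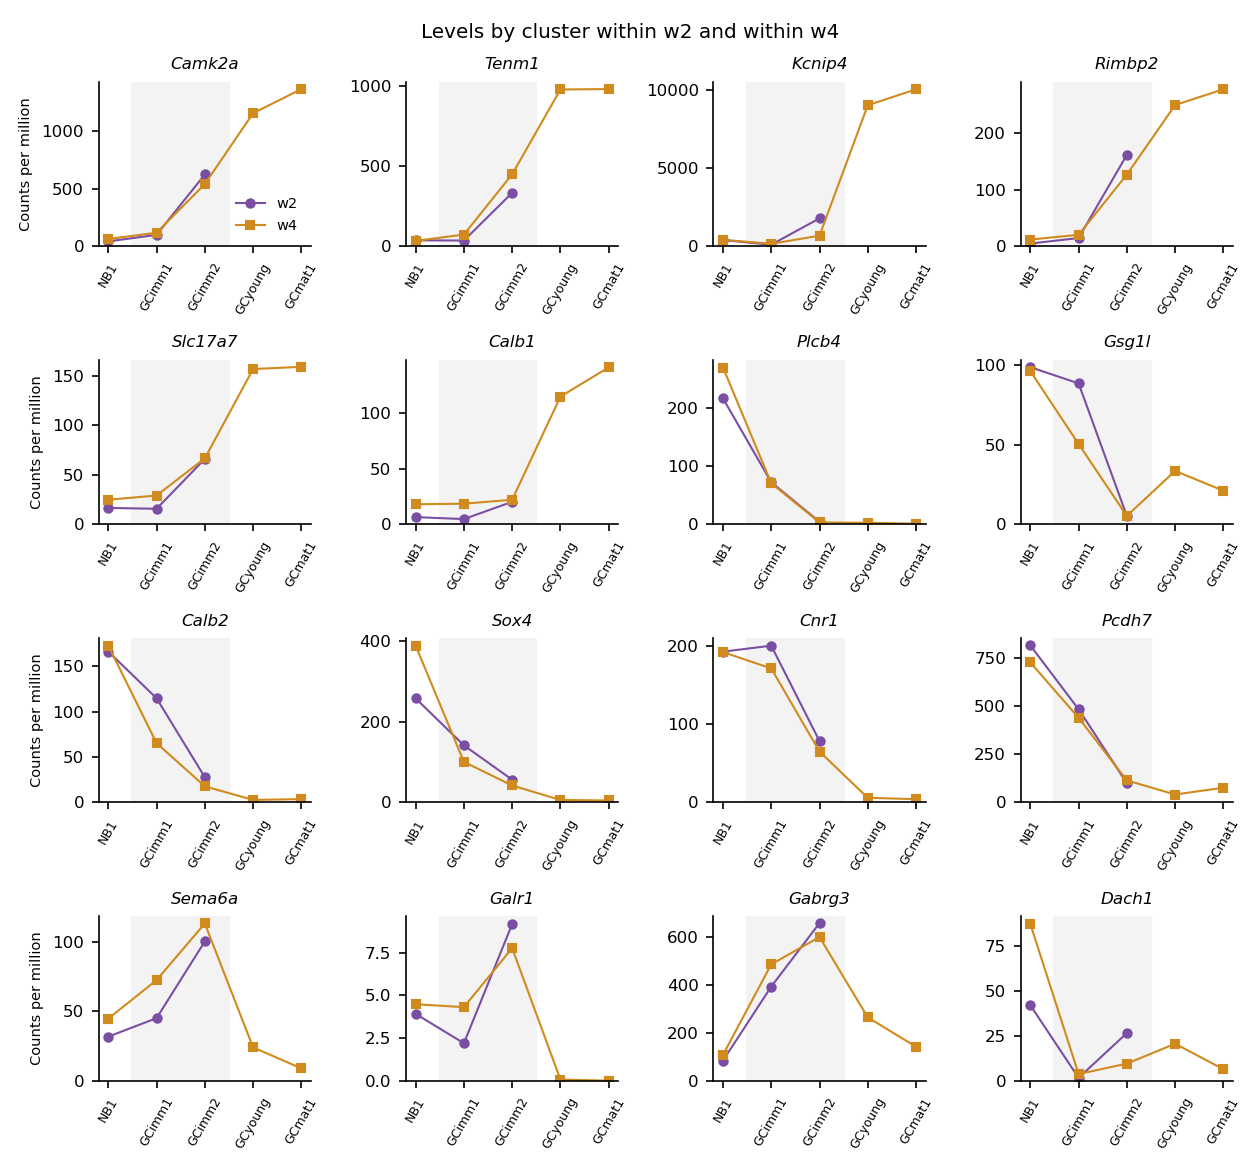
Levels in CPM of 16 named genes in the clusters NB1, GCimm1, GCimm2, GCyoung and GCmat1 (NB2 is not drawn), within w2 (purple circles) and within w4 (orange squares; GCyoung and GCmat1 are shown only there), with GCimm1 and GCimm2 shaded. Each vertical axis starts at 0; Camk2a and Tenm1 climb to GCyoung, Calb2 and Sox4 fall from NB1 on, and Sema6a, Galr1 and Gabrg3 peak at GCimm2.

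Called genes of both directions spanned more of the genome than tested genes did. Among genes that rose the median span from start to end of the gene was 96.7 kb (quartiles 32.1 and 234.1), and among those that fell 66.6 kb (23.9 and 166), against 26.8 kb (11.1 and 65.6) over all genes tested. Of the 561 tested genes over 300 kb, 26.0% rose and 7.49% fell, and of the 3176 genes up to 10 kb, 2.33% rose and 1.42% fell. By merged exons the medians were 5.76 kb (rose), 5.82 kb (fell) and 4.39 kb (all). With each nucleus thinned to 2000 UMIs the median spans were 135.5, 106.8 and 34.6 kb. Introns were counted, and the part of a gene's count level in these shares was not tested. The gene lists above were set beside all genes tested and not beside genes of like span, so the part of span in their shares was not tested either. Cdh13, Kcnip4 and Asic2 span 1041, 1135 and 1088 kb.

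**Figure D5:**
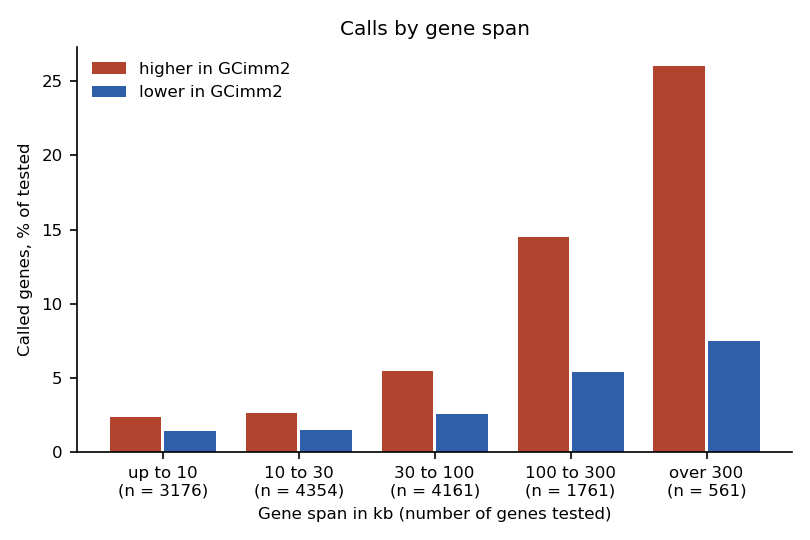
Percent of tested genes called higher (red) or lower (blue) in GCimm2, by class of gene span in kb, with the number of genes in each class. Both shares climb with the span, from 2.33% and 1.42% in the shortest class to 26.0% and 7.49% in the longest.

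Some tested genes were not in the deposited expression table and so were not among the genes the clusters were drawn from. The paper picked out the most variable genes, so genes in the table were not all among them either. Of the 1331 genes outside the table, 31 rose and 7 fell (2.86% called), against 8.93% of the 12742 in the table. The table leaves out genes found in very few nuclei and genes found in nearly all, with some genes of sex and stress, so this group joins rare genes with ubiquitous ones. Dlg2, Ptprd, Celf2, Adgrb3, Kalrn, Pcdh9, Negr1 and Tnik were among those that rose. Palm2, a membrane protein of the paralemmin family, was at 56.9 CPM in w2 and 54.2 in w4 in GCimm1 and at 225 and 187 in GCimm2 (log2 change 2.04 ± 0.19). Dlg2 went from 1880.3 and 2333 to 4386 and 4562 CPM (1.25 ± 0.27), and Fmnl2, a formin, fell from 1162 and 969 to 527 and 529.9 CPM (-0.85 ± 0.19). These 3 were chosen after their values were seen.

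Markers of other cell types summed to lower levels in GCimm2 than in GCimm1 within each week, except those of mossy and pyramidal cells in w4. Over 11053 genes with at least 100 UMIs, the median CPM log2 ratio (mean of the weeks) was itself -0.17. A small drop in CPM is therefore not particular to these markers. The summed level of 14 radial glia and astrocyte markers was 363 and 366 CPM in GCimm2 against 521 and 471 in GCimm1, more of it from Slc1a2 than from the rest in each sum (272 CPM in w2 and 276 in w4 against 199 and 213). No member was called in the edgeR fit or in DESeq2, 1 was lower at an unadjusted p under 0.05, and 3 of the 17 alternatives called 1 lower. The 12 oligodendrocyte lineage markers summed to between 90.6 and 126 CPM and the 11 vascular and microglial markers to between 44.9 and 61.1; no oligodendrocyte marker was called in either fit (2 lower at an unadjusted p under 0.05, and 1 called lower in 3 of the alternatives) and Pdgfrb, with 12 and 0 UMIs against 15 and 6, was called higher among the latter. The 14 interneuron markers summed to 392.5 and 404 CPM in GCimm1 and 236.4 and 272 in GCimm2, Kcnmb2 being called lower, and the 14 markers of mossy and pyramidal cells to 120.3 and 106.5 CPM in GCimm1 and 103.8 and 107.9 in GCimm2, Calcrl being called higher with 16 and 0 UMIs against 22 and 9. No listed marker was at 0 in all 4 sums, though Cldn5, of endothelium, had 5 UMIs in GCimm1 of w2 and 0 in the other 3 sums, and Pdgfra, of oligodendrocyte precursors, was at 0 in GCimm2 of w2 and GCimm1 of w4. Slc17a6, counted among the mossy and pyramidal markers, gave 74.6 and 58.5 CPM of their level in GCimm1 and 52.9 and 36.2 in GCimm2. It was at 118 CPM in NB1 of w2 and at 2.66 in GCyoung of w4, so it also marks young cells here. The part of free RNA or of other cells in the small levels was not tested.

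Another test asked whether GCimm2 in w4 departed from the week effect shared by all clusters, and called 3 genes of 14073 at an adjusted p of at most 0.05, against 426 at an unadjusted p under 0.05. These were Chn2, Mob3b and Samd5. A form added after these results were seen, with a week term for GCimm1 too, tests the difference between the weeks itself, and it called 1 gene, Rasgrf1, a calcium-regulated activator of Ras. Rasgrf1 went from 4.66 to 78.4 CPM in w2 and from 21.5 to 47.5 in w4. In the added form the sums of GCimm1 and GCimm2 are fitted exactly, so its p-value takes its spread from the other clusters alone. Each week is 1 pool, so week and pool cannot be told apart. Neither test says that the other genes changed alike in both weeks.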

How the data were processed

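The authors sequenced 3′ ends of nuclear RNA, counted UMIs per gene and nucleus over exons and introns with STARsolo 2.7.4a on mm10 (GRCm38), left out multi-mapped reads and doublets, and deposited whole counts of 4 libraries. A second file by the authors holds log2 values (counts over size factors, plus 1) and gives each nucleus its library and cluster. Here the deposited counts were summed per library and cluster (sums of at least 10 nuclei) for 45706 features. The 27 sums entered edgeR 4.0.16 (filterByExpr, TMM, glmQLFit, glmQLFTest) with cluster and library as terms, which left 14 residual degrees of freedom; R 4.3.3, Python 3.11.15 and DESeq2 1.42.0 were used. Because GCimm1 and GCimm2 of w2 come from 1 pool, and those of w4 from another, each week forms a pair. GCimm1 of w1 and GCimm2 of w8 had no partner and stayed out. The fit was tested on simulated data. Alternatives were other scalings, filters, nuclei, sums, thresholds and tools, each nucleus thinned to 2000 UMIs, and each week left out; a second test of the weeks was added after results were seen.

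Genes named are the 12 largest increases and decreases among called genes with the same direction in both weeks and at least 100 UMIs (clone and accession names left out), the largest changes of each list, receptor subunits, and marker genes; some genes are counted in their lists and not reported here. Members, lists and rules were chosen with earlier results of these data known. Gene positions are those of GENCODE M21 on GRCm38. The SE is the size of the log2 coefficient over the root of its F value. Where no nucleus was counted, 3 were taken as the upper limit.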

Additional observations from a re-analysis of the deposited data

Results flagged for a closer look

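Of 4 genes called in tests that involve the week, 1 passed the test of the difference between w2 and w4 itself. In the other 3, GCimm2 in w4 departed from the week effect that all clusters share. Chn2, a Rac-regulating chimaerin, went from 43.7 to 8.58 CPM in w2 and from 109.6 to 91.9 in w4, and GCimm2 in w4 departed from the common week effect by 2.79 ± 0.48 on the log2 scale (edgeR, adjusted p = 0.0042). Mob3b went from 78.3 to 48.5 CPM in w2 and from 60.3 to 12.5 in w4 (-2.10 ± 0.42, adjusted p = 0.032). Samd5 went from 77.0 to 91.4 CPM in w2 and from 38.2 to 21.1 in w4 (-1.96 ± 0.37, adjusted p = 0.020). With a week term of its own for GCimm1, their adjusted p values were 0.28 (Chn2), 1 (Mob3b) and 1 (Samd5), so the difference between the weeks itself did not pass the threshold. Rasgrf1 passed it in that form, with a change that differed by -2.96 ± 0.56 in w4 (adjusted p = 0.031), and not in the first form (adjusted p = 0.14). It rose in both weeks. The spread in that form comes from the other clusters alone, and week and pool cannot be told apart.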

How the results depend on the processing

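All 17 alternatives kept more called increases than decreases. The 1176 calls became 646 with no replicate block (all of them among the 1176), 570 in DESeq2, 381 in male nuclei alone, 713 at a fold of at least 2, and 113 by the difference of mean deposited log2 expression, a value with no test; leaving out w2 or w4 gave 211 and 725. The genes called in the lists went from 351 to 223, 199, 168, 233 and 92 in the same order, and to between 89 and 234 with a week left out. Sums by sex, thinning, RLE factors, filters, other sums and border nuclei kept both counts within 1.5 times. Thinned to 2000 UMIs per nucleus, 835 of 10272 genes were called. Of 133 named called genes, 78 lost the call without w2, 23 without w4, 49 in DESeq2, 56 in male nuclei alone, 28 with no replicate block and 98 by the difference of mean deposited log2 expression. The 3 genes in which GCimm2 of w4 departed from the shared week effect became 14 with no filter on low counts and 5 when thinned; a week term of its own for GCimm1 gave 1, Rasgrf1, none of the 3. The median gene length was 5.76 kb (rose) and 5.82 kb (fell) by merged exons, and 107 kb for genes that fell when thinned. Shares of trajectory nuclei in place of all nuclei stayed within the counting intervals. The library term is the replicate block, since each week is 1 pool. In depth, the w4 sums are the smallest; the cause of the lost calls was not tested.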
